A study of Mus musculus with 12 samples.

Results

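Translation initiation and elongation factors are the proteins, other than those of the ribosome itself, that place a ribosome on an mRNA and carry it along the message. Their transcripts were followed here in the adult mouse nucleus accumbens, which lies in the ventral striatum and takes part in reward and motivation. The genes were those whose array row was annotated with exactly 1 gene symbol starting with Eif or Eef followed by a digit. Eif2s3y, a Y-linked gene, and Eif2ak2, the kinase activated by double-stranded RNA, were left out by the same rule. This gave 58 genes on 71 rows, out of 18820 different symbols on the 21218 rows with 1 symbol, and the row with the highest mean over all 12 arrays stood for each gene. The choice used no difference between the groups.

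Both groups were C57BL/6N mice dissected at 12 weeks of age after cognitive and behavioural testing. The 6 poly(I:C) offspring came from mothers injected intravenously with 5 mg/kg of poly(I:C), an artificial double-stranded RNA used to stand in for a virus, on gestation day 17. The 6 control offspring came from mothers given saline by the same route on the same day. The injection was thus given to the mother and not to the animal measured, and no source used here gives the litter or sex of the offspring. The p-values below therefore measure only the spread between these samples. RNA came from the core and shell of the accumbens together, and each animal was measured on 1 Affymetrix Mouse Gene 1.1 ST array. The values are log2 expression levels with array medians from 4.78 to 4.85, and no 2 arrays were identical. Of 12 markers of medium spiny neurons, which make up most accumbens neurons, 10 were measured and 0 lay under the median level of all rows tested (5.47). Their mean level ran from 9.07 to 9.49 in poly(I:C) offspring and from 8.81 to 9.41 in control offspring. In bulk tissue, fewer cells of a type and less RNA per cell cannot be told apart.

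Translation begins when eIF2 brings the initiator tRNA to the small ribosomal subunit, together with eIF1, eIF1A, eIF3 and eIF5. The eIF4 factors bind the cap of the mRNA and unwind its leader, and eIF5B joins the large subunit. The eEF1 factors then deliver each aminoacyl-tRNA, and eEF2 moves the ribosome by a codon. Kinases that phosphorylate eIF2, and the eIF4E-binding proteins under the control of mTOR, are the main brakes on initiation, and in neurons both are known for their roles in synaptic plasticity and memory.

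Over the whole set, the levels of translation factor transcripts differed little between poly(I:C) and control offspring. Of the 58 genes, 0 passed limma's test at an adjusted p under 0.05, where 0.0613% of all rows tested did. The lowest adjusted p, 0.0820, belonged to Eif3e, a subunit of eIF3 that was lower in poly(I:C) offspring. An unadjusted p under 0.05 was reached by 12 genes (20.7%), against 14.4% of all rows tested. Among them, the poly(I:C) level was the higher one for 7 genes (12.1%, against 7.83% of all rows) and the lower one for 5 genes (8.62%, against 6.57%). Of the 58 genes, 54 lay above the median level of all rows. In a fit on the rows above that level, 5 of these 54 reached an unadjusted p under 0.05 as higher and 3 as lower. Of the rows in that fit, 11.2% and 6.63% did, so in neither direction did the factor genes have the larger share. The groups did not overlap for 0 of the 58 genes, where this held for 1.13% of all rows.

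The differences ran from -0.32 to 0.20 on the log2 scale with a median of 0.03, against a median of 0.0016 over all rows tested and 0.02 over the rows above the median level. In value 33 genes (56.9%) were higher in poly(I:C) offspring, against 50.9% of all rows, and 25 were lower. The median size of a difference, whatever its sign, was 0.0496 for the 58 genes and 0.0484 for all rows. The 95% interval of the difference stayed within 0.25 on either side of 0, a 1.19-fold change, for 48 of the 58 genes (82.8%, against 81.4% of all rows), and within 0.5 for all 58. The spread within groups was also that of the other rows, with a median SD of 0.0875 for the factors and 0.0874 for all rows.

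**Figure D1:**
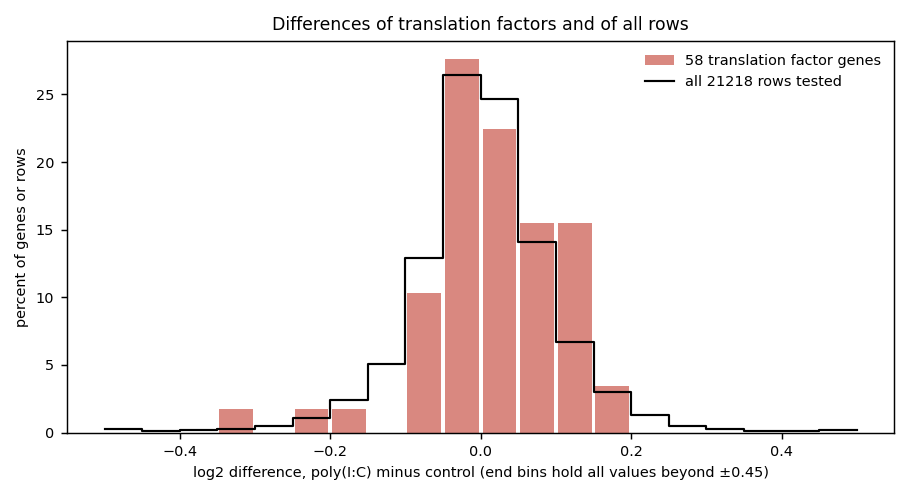
Distribution of the log2 difference, poly(I:C) minus control, in bins of the horizontal axis, as percent of genes or rows on the vertical axis, with bars for the 58 translation factor genes and a line for all 21218 rows tested. Both peak near 0, the bars stand above the line between 0.10 and 0.15 (15.5% against 6.69%), and Eif3e, at -0.32, forms the bar farthest to the left.

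Single arrays moved many of these genes together. Poly(I:C) 6 was the lowest poly(I:C) array for 33 of the 58 genes (56.9%), against 30.4% of all rows tested. Its mean over the 58 genes was 7.35, the lowest of all 12 arrays, while the other poly(I:C) arrays lay between 7.41 and 7.47 and the control arrays between 7.37 and 7.43. Over all rows tested its mean, 5.62, was also the lowest, with the other arrays between 5.64 and 5.66. Controls 1 and 4 were together the 2 lowest or the 2 highest control arrays for 28 genes (48.3%), against 31.1% of all rows. The number of genes higher at an unadjusted p under 0.05 was 4 without control 1, 3 without control 4, 4 without both, 4 without poly(I:C) 3 and 3 without poly(I:C) 4. It rose to 10 without poly(I:C) 6, to 9 without control 2 or control 6, and to 8 without control 5. The number lower was 2 without control 2 and 2 without poly(I:C) 5. It was 3 without any one of controls 3, 5 and 6 or poly(I:C) 1 and 6.

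**Figure D2:**
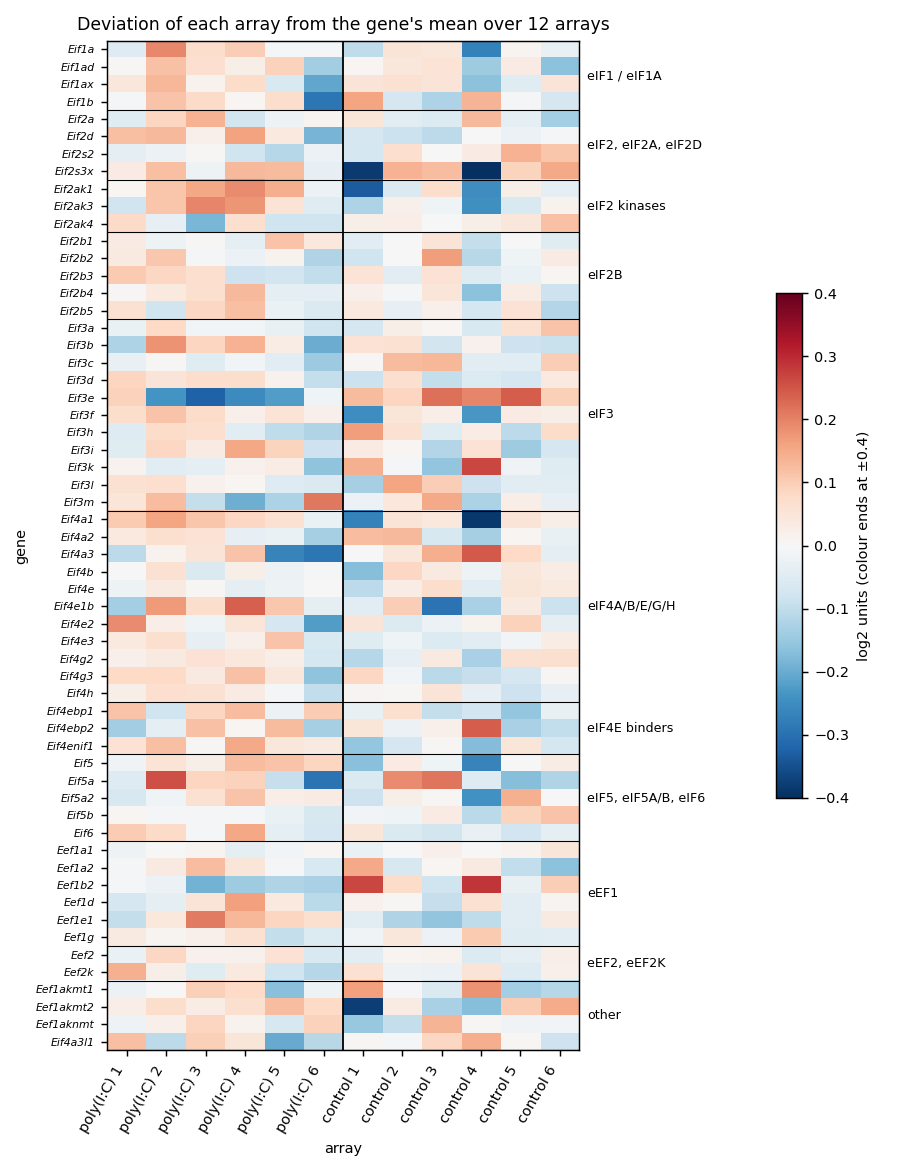
Deviation of each array (columns, poly(I:C) 1 to 6 and then control 1 to 6) from each gene's mean over the 12 arrays (rows, grouped by factor complex), in log2 units, red above and blue below the mean. Controls 1 and 4 share blue cells for Eif4a1, Eif2ak1, Eif5 and Eif2s3x and red cells for Eef1b2, and poly(I:C) 6 is the lowest poly(I:C) array for 33 of the 58 genes.

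The arrays also differed in transcripts of other cell types. In poly(I:C) offspring all 10 measured markers of mature oligodendrocytes had lower values, with 1 past the adjusted threshold (Mobp, a myelin protein gene), and their mean level ran from 7.79 to 7.98 in poly(I:C) offspring and from 7.94 to 8.51 in control offspring. The 8 cortical neuron markers had a mean level from 5.83 to 6.65 in poly(I:C) offspring and from 5.32 to 6.48 in control offspring, with 7 higher in value. The 10 choroid plexus markers had a mean level from 4.35 to 4.59 in poly(I:C) offspring and from 4.54 to 6.80 in control offspring. Controls 4 and 6, at 5.98 and 6.80, made up the top of the control range, and the remaining controls lay between 4.54 and 5.00. All 10 differences were negative, and 8 of these markers lay under the median level of all rows. For septal and pallidal neurons the mean of 10 markers ran from 5.50 to 6.14 in poly(I:C) offspring and from 5.63 to 6.36 in control offspring. The 8 astrocyte, 8 microglia and 8 endothelial and pericyte markers gave 0 genes past the adjusted threshold. With covariates for the means of the cortical, septal and choroid plexus lists, 3 translation factor genes were higher and 4 lower at an unadjusted p under 0.05. The part of oligodendrocytes in the differences was not tested.

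Among the factors of start codon scanning, no gene reached an unadjusted p under 0.05. eIF1 and eIF1A keep the scanning ribosome open until it meets a start codon, and 4 genes of this group were measured. Eif1a, the autosomal eIF1A gene, had a median of 5.52 (5.44 to 5.68) in poly(I:C) offspring and of 5.48 (5.22 to 5.54) in control offspring. Its log2 difference of 0.10 was the largest of the group (95% interval -0.03 to 0.22). The X-linked Eif1ax and the eIF1 paralogue Eif1b were at -0.0018 and -0.0087, and Eif1ad, a relative of eIF1A, was at 0.06. Eif1b was at 8.86 to 9.27 (median 9.19) in poly(I:C) offspring and at 9.03 to 9.31 (median 9.12) in control offspring. Poly(I:C) 6, at 8.86, lay below the other 5 poly(I:C) arrays for this gene, which began at 9.15.

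The subunits of eIF2, which carries the initiator tRNA, showed no shared direction. Eif2s2, the beta subunit, was between 7.38 and 7.50 (median 7.46) in poly(I:C) offspring and between 7.42 and 7.63 (median 7.54) in control offspring. Control 1, at 7.42, was the control array inside the poly(I:C) range together with control 3, at 7.49. The log2 difference was -0.09 (95% interval -0.18 to -0.0071), with an unadjusted p of 0.0359 and a limma adjusted p of 0.312. With the tissue covariates it was -0.05 (limma adjusted p = 0.818), and it had an unadjusted p under 0.05 in 10 of 22 alternatives. Eif2s3x, the X-linked gamma subunit, ran from 8.48 to 8.64 (median 8.59) in poly(I:C) offspring and from 8.04 to 8.66 (median 8.62) in control offspring. Controls 1 and 4, at 8.13 and 8.04, lay apart from the other 4 control arrays, which began at 8.60. The difference of 0.12 had an interval from -0.11 to 0.35. Without both of these controls it was -0.07, and that of Eif2s2 was -0.13. Eif2d and Eif2a encode proteins that can bring initiator tRNA to the ribosome without eIF2. Eif2d was at 6.24 to 6.58 (median 6.50) in poly(I:C) offspring and at 6.32 to 6.42 (median 6.38) in control offspring. Its difference was 0.09 (95% interval -0.02 to 0.21), and that of Eif2a was 0.03.

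Transcripts of 3 kinases that phosphorylate eIF2 and so slow initiation under stress were measured. Of these, 2 were higher in poly(I:C) offspring at an unadjusted p under 0.05. Of all rows 7.83% were, and of the rows above the median level, in their own fit, 11.2%. Without both control 1 and control 4, 0 were higher at that threshold. Eif2ak1 encodes HRI, known as a sensor of haem shortage and mitochondrial stress. Its level was 7.11 to 7.32 (median 7.26) in poly(I:C) offspring and 6.79 to 7.20 (median 7.08) in control offspring. The 2 low control arrays were control 1, at 6.79, and control 4, at 6.88. This was a log2 difference of 0.20 (95% interval 0.05 to 0.34), with an unadjusted p of 0.0114 and a limma adjusted p of 0.218. Without both control 1 and control 4 it was 0.10 (limma adjusted p = 0.387).

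Eif2ak3 encodes PERK, the kinase that senses unfolded protein in the endoplasmic reticulum. It was at 5.84 to 6.12 (median 6.00) in poly(I:C) offspring and at 5.67 to 5.94 (median 5.88) in control offspring. Poly(I:C) 2 to 5 lay above every control array, while poly(I:C) 1 and 6 lay among the controls. The difference was 0.14 (95% interval 0.01 to 0.26, limma adjusted p = 0.311). It was 0.08 without both control 1 and control 4 (limma adjusted p = 0.578) and 0.08 with the tissue covariates (limma adjusted p = 0.716), and in neither was the unadjusted p under 0.05. Eif2ak4 encodes GCN2, which senses uncharged tRNA, and had 5.91 to 6.17 (median 6.04) in poly(I:C) offspring and 6.09 to 6.21 (median 6.12) in control offspring. Its difference of -0.08 had an interval from -0.17 to 0.02.

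eIF2B is the exchange factor that reloads eIF2 with GTP and the target of the phosphorylated form of eIF2. All 5 of its subunit genes were measured, and their differences lay between -0.00017 and 0.05. Eif2b5, the catalytic subunit, was at 6.42 to 6.62 (median 6.52) in poly(I:C) offspring and at 6.38 to 6.56 (median 6.50) in control offspring. Its difference was 0.03 (95% interval -0.06 to 0.13). Eif2b1 was at 6.81 to 6.96 (median 6.87) in poly(I:C) offspring and at 6.75 to 6.90 (median 6.83) in control offspring, with a difference of 0.04. Eif2b3 was at 6.46 to 6.66 (median 6.55) in poly(I:C) offspring and at 6.50 to 6.61 (median 6.54) in control offspring. The groups overlapped for each subunit, and the lowest adjusted p in the complex was 0.607.

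The gene that differed most was Eif3e, a subunit of eIF3, the large scaffold that holds the small ribosomal subunit and the mRNA together. Its levels in poly(I:C) 1 to 6 were 7.75, 7.41, 7.33, 7.40, 7.43 and 7.64, against 7.78, 7.74, 7.87, 7.85, 7.89 and 7.75 in control 1 to 6. Poly(I:C) 2 to 6 lay below every control array, and poly(I:C) 1 lay above control 2 and below the other 5. The mean was 7.49 ± 0.16 in poly(I:C) offspring and 7.81 ± 0.07 in control offspring (SD, n = 6 arrays each). The log2 difference of -0.32 (95% interval -0.46 to -0.18), or 0.80-fold, had an unadjusted p of 0.000234 and a limma adjusted p of 0.0820, one of 150 rows with an adjusted p under 0.1. Without poly(I:C) 1 the difference was -0.37 and passed (limma adjusted p = 0.0227), and over all alternatives the adjusted p ran from 0.0227 to 0.309. With the same 3 tissue covariates the difference was -0.28 (limma adjusted p = 0.301).

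The other 10 measured eIF3 subunits did not share the size of that difference. Eif3c was at 8.55 to 8.70 (median 8.66) in poly(I:C) offspring and at 8.65 to 8.83 (median 8.75) in control offspring. Its log2 difference was -0.09 (unadjusted p = 0.0490, limma adjusted p = 0.345), and 2 other rows of the gene gave -0.03 and 0.08. Eif3f was at 9.47 to 9.57 (median 9.51) in poly(I:C) offspring and at 9.20 to 9.50 (median 9.48) in control offspring. The 2 low arrays were controls 1 and 4, at 9.20 and 9.22, and the difference of 0.12 had an interval from -0.0042 to 0.24. The remaining subunits, Eif3a, Eif3b, Eif3d, Eif3h, Eif3i, Eif3k, Eif3l and Eif3m, lay between -0.06 and 0.08. Over the 11 subunits 5 were higher and 6 lower in value, with a median of -0.01.

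**Figure D3:**
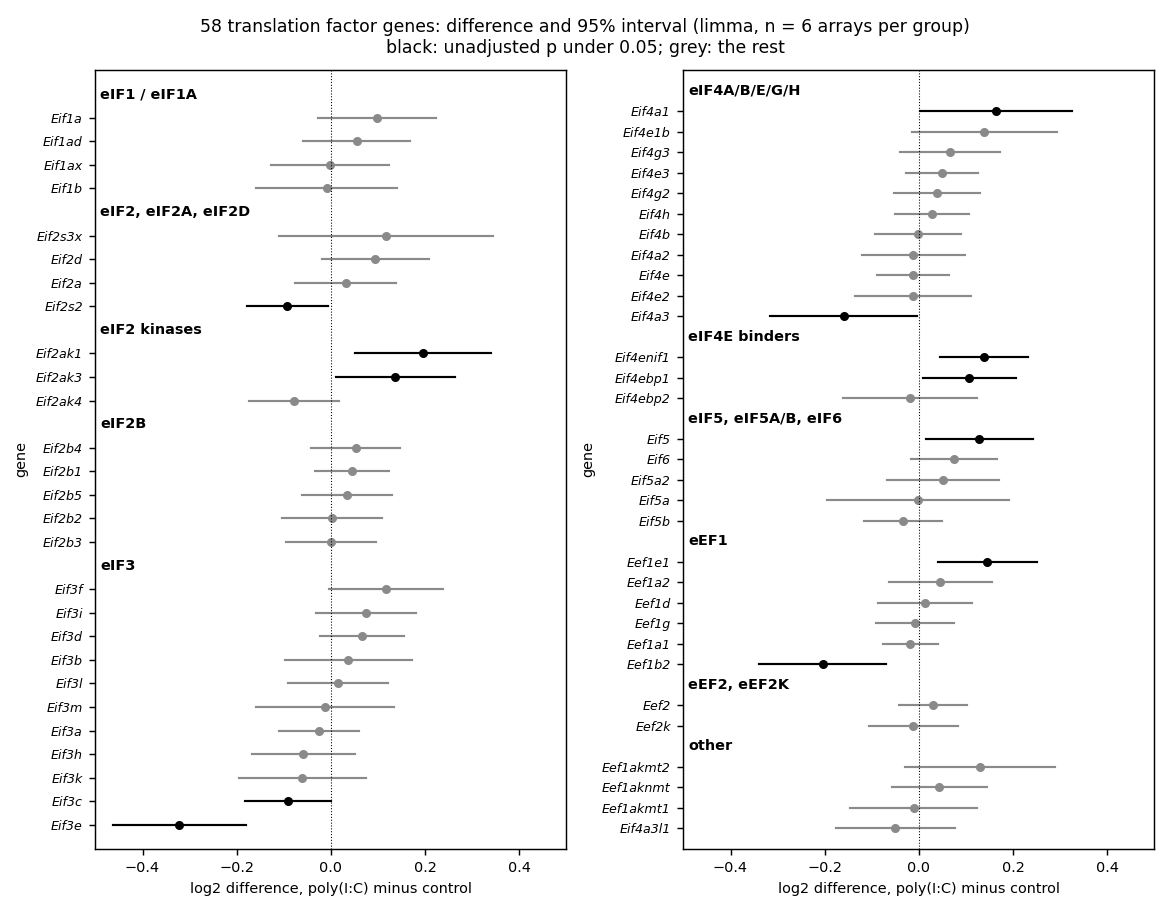
Log2 difference, poly(I:C) minus control, with its 95% interval (horizontal axis) for each of the 58 genes (vertical axis), grouped by complex, with the 12 genes with an unadjusted p under 0.05 in black and the rest in grey. Eif3e lies apart at -0.32, while the intervals of 48 genes stay within 0.25 of 0.

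Among the genes named for eIF4, most of which act at the cap and leader, the rows used for Eif4a1 and Eif4a3 stood on opposite sides. Eif4a1 encodes the helicase of the cap-binding complex. It was at 9.97 to 10.16 (median 10.09) in poly(I:C) offspring and at 9.61 to 10.05 (median 10.03) in control offspring. Control 1, at 9.73, and control 4, at 9.61, were low, whereas the other 4 controls lay between 10.02 and 10.05, inside the poly(I:C) range. The resulting log2 difference was 0.16 (95% interval 0.0018 to 0.32, unadjusted p = 0.0478, limma adjusted p = 0.343), and it was 0.10 without control 4 and 0.04 without both of these controls. The other rows of Eif4a1 gave 0.09 and 0.12.

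Eif4a3 encodes a related helicase that marks exon junctions after splicing. It was at 6.07 to 6.47 (median 6.31) in poly(I:C) offspring and at 6.32 to 6.60 (median 6.42) in control offspring. Poly(I:C) 5 and 6, at 6.09 and 6.07, lay apart below the rest. The difference was -0.16 (95% interval -0.32 to -0.0032, limma adjusted p = 0.338). It was -0.13 without control 4 (limma adjusted p = 0.537), with an unadjusted p above 0.05, and -0.24 with the tissue covariates (limma adjusted p = 0.402). Eif4a2, the helicase form common in neurons, was at -0.01. The near copy Eif4a3l1 lay under the median level of all rows, at 4.23 to 4.56 (median 4.41) in poly(I:C) offspring and at 4.35 to 4.58 (median 4.44) in control offspring, a difference of -0.05. The rows shared by Eif4a3 and Eif4a3l1, with higher poly(I:C) means of 7.45 and 7.03, gave differences of 0.0034 and 0.07.

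Eif4e, which encodes the cap-binding protein itself, was at 7.62 to 7.69 (median 7.64) in poly(I:C) offspring and at 7.55 to 7.72 (median 7.69) in control offspring. Its log2 difference was -0.01 (95% interval -0.09 to 0.06). Another row of the gene gave 0.11 with an unadjusted p of 0.0299 and a limma adjusted p of 0.296, so the 2 rows differed in sign. Eif4e2, a cap-binding relative that represses translation, and Eif4e3 were at -0.01 and 0.05. The scaffold genes Eif4g2 and Eif4g3 were at 0.04 and 0.07, and the helicase helpers Eif4b and Eif4h at -0.0011 and 0.03. Eif4e1b, an oocyte form of the cap-binding protein, lay under the median level of all rows, at 3.93 to 4.30 (median 4.15) in poly(I:C) offspring and at 3.77 to 4.16 (median 4.00) in control offspring, with a difference of 0.14 (95% interval -0.02 to 0.29). Another row of Eif4e1b gave -0.01, so its 2 rows differed in sign as well.

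Transcripts of 3 proteins that bind and restrain eIF4E were measured, and 2 were higher in poly(I:C) offspring at an unadjusted p under 0.05, where 7.83% of all rows were. The mean level of the 3 ran from 6.19 to 6.28 in poly(I:C) offspring and from 6.11 to 6.18 in control offspring. The lowest poly(I:C) mean, 6.186, lay just above the highest control mean, 6.183. This mean includes the 2 genes counted as higher, Eif4enif1 and Eif4ebp1, whereas Eif4ebp2 was at -0.02. For each of the 3 genes alone the groups overlapped, and how often a mean of other genes separates in this way was not tested. Eif4enif1 encodes a transporter that takes eIF4E into the nucleus and into sites of mRNA decay. It was at 6.80 to 6.94 (median 6.84) in poly(I:C) offspring and at 6.62 to 6.84 (median 6.72) in control offspring. The lowest were controls 1 and 4, at 6.64 and 6.62, and controls 3 and 5 lay inside the poly(I:C) range. On the log2 scale the difference was 0.14 (95% interval 0.04 to 0.23), with an unadjusted p of 0.00712 and a limma adjusted p of 0.190, and the other row of the gene gave 0.07. Without both control 1 and control 4 it was 0.09 (limma adjusted p = 0.347), and with the tissue covariates it was 0.11 (limma adjusted p = 0.546), with an unadjusted p above 0.05.

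Eif4ebp1 encodes an eIF4E inhibitor that mTOR switches off. It lay under the median level of all rows, at 5.12 to 5.32 (median 5.29) in poly(I:C) offspring and at 5.04 to 5.26 (median 5.14) in control offspring. Controls 1, 2, 4 and 6 lay inside the poly(I:C) range, and the difference of 0.11 had a limma adjusted p of 0.313. Eif4ebp2, the form of this inhibitor that prevails in brain, was at 6.43 to 6.69 (median 6.55) in poly(I:C) offspring and at 6.44 to 6.81 (median 6.57) in control offspring. Its difference was -0.02 (95% interval -0.16 to 0.12).

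**Figure D4:**
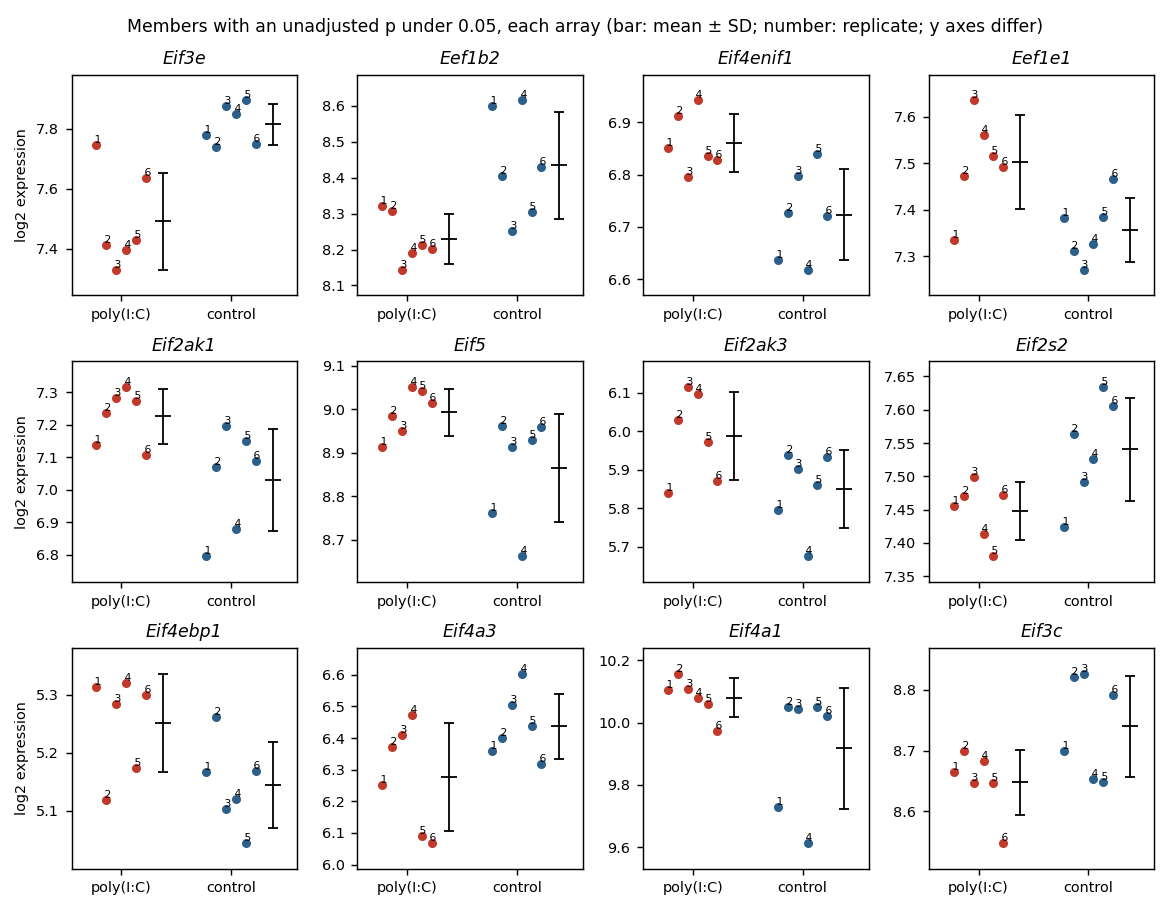
Log2 expression (vertical axis, scaled per panel) of the 12 genes with an unadjusted p under 0.05 on each array, poly(I:C) in red and control in blue, with the replicate number beside each point and bars for mean ± SD over 6 arrays. In each panel the 2 groups overlap, and controls 1 and 4 are the outlying controls for Eif4a1, Eif5, Eif2ak1 and Eef1b2.

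The factors of start codon commitment and subunit joining gave 1 gene with an unadjusted p under 0.05. Eif5, which makes eIF2 hydrolyse its GTP at the start codon, was at 8.91 to 9.05 (median 9.00) in poly(I:C) offspring and at 8.66 to 8.96 (median 8.92) in control offspring. Again controls 1 and 4, at 8.76 and 8.66, were the low arrays. The log2 difference was 0.13 (95% interval 0.01 to 0.24, unadjusted p = 0.0298, limma adjusted p = 0.296) and 0.05 without both of these controls. Eif5b, the GTPase that joins the large subunit, was at 6.20 to 6.27 (median 6.26) in poly(I:C) offspring and at 6.16 to 6.38 (median 6.27) in control offspring, a difference of -0.03.

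Eif5a encodes the hypusine-bearing factor that helps the ribosome past slow peptide bonds. It varied widely within groups, from 8.59 to 9.14 (median 8.90) in poly(I:C) offspring and from 8.71 to 9.09 (median 8.83) in control offspring. The difference was -0.0015 with an interval from -0.19 to 0.19. Its relative Eif5a2 was at 0.05, and Eif6, which keeps the ribosomal subunits apart, was at 0.07.

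Elongation factors of the eEF1 complex included Eef1b2, which had the second largest difference of the 58 genes in size. Eef1b2 encodes the exchange factor that recharges eEF1A with GTP. Its levels in poly(I:C) 1 to 6 were 8.32, 8.31, 8.14, 8.19, 8.21 and 8.20, against 8.60, 8.41, 8.25, 8.62, 8.30 and 8.43 in control 1 to 6. Controls 1 and 4 were the highest, and controls 3 and 5 lay inside the poly(I:C) range. The mean was 8.23 ± 0.07 in poly(I:C) offspring and 8.43 ± 0.15 in control offspring (SD, n = 6 arrays each). The log2 difference was -0.20 (95% interval -0.34 to -0.07), with an unadjusted p of 0.00564 and a limma adjusted p of 0.176. Without both control 1 and control 4 it was -0.12.

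Eef1e1 encodes a small protein that docks on the complex of aminoacyl-tRNA synthetases. It was at 7.33 to 7.64 (median 7.50) in poly(I:C) offspring and at 7.27 to 7.47 (median 7.36) in control offspring. Poly(I:C) 2 to 6 lay above all control arrays, and poly(I:C) 1, at 7.33, lay among them. The log2 difference was 0.15 (95% interval 0.04 to 0.25), with an unadjusted p of 0.0106 and a limma adjusted p of 0.214.

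The 2 carriers of aminoacyl-tRNA had intervals that held 0. Eef1a1, the widespread form of eEF1A, was at 10.98 to 11.02 (median 11.01) in poly(I:C) offspring and at 10.99 to 11.06 (median 11.02) in control offspring. The difference was -0.02 (95% interval -0.08 to 0.04). Eef1a2, the form of neurons and muscle, was at 9.45 to 9.63 (median 9.52) in poly(I:C) offspring and at 9.34 to 9.66 (median 9.48) in control offspring, a difference of 0.05 (95% interval -0.06 to 0.15). Over the alternatives the difference of Eef1a2 ran from -0.05 with the tissue covariates to 0.10 without both control 1 and control 4. The complex members Eef1d and Eef1g were at 0.01 and -0.0088. The enzymes that methylate eEF1A, Eef1akmt1, Eef1akmt2 and Eef1aknmt, were at -0.01, 0.13 and 0.04. The value of Eef1akmt2 had an interval from -0.03 to 0.29, and its arrays ran from 6.35 to 6.45 (median 6.39) in poly(I:C) offspring and from 5.94 to 6.47 (median 6.27) in control offspring, with control 1 the lowest. Its difference was 0.07 without control 1 and 0.03 without both control 1 and control 4, against 0.25 with the tissue covariates.

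eEF2 and its kinase, a pair through which neurons slow elongation during activity, gave small differences. Eef2 was at 10.43 to 10.57 (median 10.50) in poly(I:C) offspring and at 10.43 to 10.51 (median 10.47) in control offspring, a log2 difference of 0.03 (95% interval -0.04 to 0.10). Another row of Eef2 gave 0.11 (unadjusted p = 0.0484, limma adjusted p = 0.343). Eef2k was at 6.21 to 6.47 (median 6.31) in poly(I:C) offspring and at 6.27 to 6.38 (median 6.32) in control offspring, a difference of -0.01 (95% interval -0.11 to 0.08). For both genes the control range lay inside the poly(I:C) range.

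A fixed list of 9 of these factors, which need not be complete, was used for the next values. In human cells their mRNAs are known to begin with a terminal oligopyrimidine tract, the 5′ TOP, through which mTOR controls their translation. RefSeq promoter entries on GRCm38.p6 were found for 5 of the 9 mouse genes, and they are shown because the set holds Eef1b2 beside 4 genes with smaller differences. Each line gives the 10 bases before the annotated start and the 20 from it, on the coding strand, with the longest run of C and T in capitals.
Eef1a1, chr9:78481705-78481734, minus strand: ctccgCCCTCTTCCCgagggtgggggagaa
Eef1b2, chr1:63176821-63176850, plus strand: ctgcagTTCCgccggaagtagccgaggcct
Eef2, chr10:81176621-81176650, plus strand: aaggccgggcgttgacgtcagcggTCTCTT
Eif3f, chr7:108934405-108934434, plus strand: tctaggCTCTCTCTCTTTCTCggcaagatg
Eif4b, chr15:102073763-102073792, plus strand: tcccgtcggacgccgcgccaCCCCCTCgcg
The run was longest in Eif3f, with 15 bases, and shortest in Eef1b2, with 4. In the 25 bases on each side of the start, a run of at least 8 C or T bases was found for 3 of these 5 starts, for 17 of the 60 annotated starts of all factor genes with an entry (28.3%) and for 19.7% of the 32851 starts in the table. Annotated starts need not be the starts used in this tissue, so a run that is short here says nothing of the mRNA's own first bases.

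The mean level of these 9 genes ran from 8.71 to 8.77 in poly(I:C) offspring and from 8.77 to 8.81 in control offspring. Every poly(I:C) array lay below every control array, though barely, with the highest poly(I:C) array at 8.766 and the lowest control array at 8.770. This mean includes Eif3e and Eef1b2, already described as lower, and no mean without them was computed. The list was chosen with earlier results of these data known. For each gene alone the groups overlapped, and how often a mean of other genes separates in this way was not tested. The single genes differed in sign, and under a repeated quantile normalization Eef1a1 and Eef2 changed sign, to 0.0027 and -0.0064. Eef1b2 and Eif3e were lower at an unadjusted p under 0.05, at -0.20 and -0.32, the largest differences of the 9 in size. Eef1a1, Eef1d, Eef1g, Eef2 and Eif4b all lay between -0.02 and 0.03, Eif3h was at -0.06 and Eif3f at 0.12. Over the 9 genes 3 were higher and 6 lower in value, with a median of -0.0088, and 0 passed the adjusted threshold.

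Other genes that act on cytosolic translation were read from a list of 31, of which 28 were measured. Of these, 0 passed the adjusted threshold. At an unadjusted p under 0.05, 7 of the 28 were higher and 3 lower, where 7.83% and 6.57% of all rows were. All but 3 of the 28 lay above the median level, where 11.2% and 6.63% of rows were, in a fit on those rows. The list mean was lowest in controls 1 and 4, at 7.37 and 7.34, while the other controls began at 7.41. The counts of this list were not recomputed without them. The median difference was 0.05. Tsc2, part of the brake on mTOR, was at 8.03 ± 0.03 in poly(I:C) offspring and 7.89 ± 0.07 in control offspring (SD, n = 6 arrays each), a log2 difference of 0.14 (limma adjusted p = 0.141). Mknk1, a kinase that phosphorylates eIF4E, was at 7.00 ± 0.08 in poly(I:C) offspring and 6.83 ± 0.10 in control offspring, a difference of 0.16 (limma adjusted p = 0.187). Paip2, a repressor that binds the poly(A)-binding protein, was at 8.41 ± 0.05 in poly(I:C) offspring and 8.53 ± 0.06 in control offspring, a difference of -0.11 (limma adjusted p = 0.193).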

How the data were processed

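The authors deposited 1 table of log2 values, with 35556 rows and 12 arrays, and per the submitters' processing notes it was made with RMA and Partek 6.6. RMA corrects background, applies quantile normalization and summarises each probe set, so a shift common to most genes is removed. No source used here gives its other settings, and the number of arrays limits the precision. Groups were taken from the sample titles.

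Rows were named from the platform annotation, and all 58 symbols matched the RefSeq gene table of GRCm38.p6. With R 4.3.3 and limma 3.58.1, lmFit and eBayes were run on the 21218 rows with 1 symbol, with exposure as the only term and 10 residual degrees of freedom. Tests were two-sided, with Benjamini-Hochberg adjustment over all 21218 rows and a threshold of 0.05. Differences are poly(I:C) minus control. If offspring shared a litter, the p-values treat litter mates as independent. The step was also run on simulated data with noise independent between rows. Recovery was required there only for changes larger than any difference of the factor genes. It does not show how the fit performs for differences of that size, or where single arrays move many genes together.

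The members, gene lists and tests were chosen with earlier results of these data known. Every member may be named. Values over all arrays are given for the member with the smallest p of each complex in each direction, and for Eef2, Eef1a1, Eef1a2, Eif4e, Eif4ebp2, Eif2ak3, Eif2b5, Eef2k and Eif5a. Eif2s1 and Eif4g1, also on that list, were not analysed here. Eif2s3x, Eif4e1b, Eif3c and Eif4ebp1 were added after their values were seen. Of the other translation genes the 3 with the smallest p are named. Alternatives covered normalization, filtering, the variance model, array weights, single arrays, pairs of control arrays, tissue covariates, the replicate number and the row per symbol. Same-numbered arrays of the 2 groups deviated with correlations from -0.201 to 0.269, so the numbers were not taken as pairs.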

Additional observations from a re-analysis of the deposited data

Results flagged for a closer look

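Among the 116 sets of 6 arrays (58 genes in each of 2 groups), 5 held an array far from the others by Dixon's ratio, where chance flags about 1 in 20. In 4 of the 5 this was poly(I:C) 6, the lowest poly(I:C) array. It was at 8.86 for Eif1b, with the nearest array at 9.15. For Eif3c it was at 8.55, with the nearest at 8.65. It stood at 9.26 for Eif4g2, with the nearest at 9.35, and at 8.03 for Eif4g3, with the nearest at 8.23. The other was control 1 for Eif6, the highest control at 7.52, with the nearest at 7.44. Without poly(I:C) 6 the count of genes higher at an unadjusted p under 0.05 was 10, and 3 were lower.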

How the results depend on the processing

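The 4 results on the whole set and the differences of all 58 genes were recomputed under 22 alternatives, of which leaving out both control 1 and control 4 was chosen after seeing the data. The fit on rows above the median level left out Eif4ebp1, Eef1aknmt, Eif4a3l1 and Eif4e1b, which had 21. The count of genes past the adjusted threshold was 0 under 20 of them. It was 1, Eif3e, with array weights (limma adjusted p = 0.0459), and 0 to 1 with a single array left out, reached without poly(I:C) 1. The count higher at an unadjusted p under 0.05 ran from 3 to 10 with a single array left out. It was 3 without both control 4 and control 6, 3 with the tissue covariates and 4 without both control 1 and control 4. The count lower ran from 2 to 5 with a single array left out. It was 2 without both control 4 and control 6 and 3 with each of the rows above the median level only, all rows of the table, the trended and robust variance model, and the mean of the rows of a symbol. With the replicate number as a block in the fit 0 genes passed, 6 were higher and 3 lower at an unadjusted p under 0.05, and Eif3e had a limma adjusted p of 0.165. The median difference of the 58 genes ran from -0.01 with the tissue covariates to 0.04 without poly(I:C) 6. Eif3e, Eef1b2 and Eef1e1 kept an unadjusted p under 0.05 in all 22, Eif2ak1 and Eif4enif1 in 21, and the other 7 of the 12 genes in 8 to 14. None of the 12 changed sign. The cause of these shifts was not tested.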

Other observations

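Mitochondria translate with factors of their own, and all 9 listed genes of this kind were measured. None passed the adjusted threshold or reached an unadjusted p under 0.05 in limma's test, and the differences ran from -0.07 to 0.08. Mtif3, a mitochondrial initiation factor named here after its values were seen, was at 6.09 ± 0.09 in poly(I:C) offspring and 6.01 ± 0.09 in control offspring (SD, n = 6 arrays each), a log2 difference of 0.08.

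Some rows carry a factor symbol beside that of another gene and took no part in the counts and medians above. On 2 rows shared by Eif3j1 and Eif3j2, near copies of an eIF3 subunit, the differences were -0.06 and -0.08. The row at -0.08 had a mean of 8.28 ± 0.05 in poly(I:C) offspring and 8.36 ± 0.09 in control offspring (SD, n = 6 arrays each). On 2 rows shared by Eif4a3 and Eif4a3l1 the differences were 0.0034 and 0.07, whereas the row of Eif4a3 alone gave -0.16.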
